A study of Mus musculus with 6 samples.

Results

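The 9 antioxidant genes studied here are ones that the transcription factor NRF2 is known to switch on, followed through single-cell RNA-seq of mouse small intestinal organoids: Nqo1, Gclc, Gclm, Hmox1, Txnrd1, Srxn1, Slc7a11, Cbr3 and Akr1b8. They were picked by symbol as textbook targets, with earlier results of these data known. Each symbol matched 1 of the 32285 gene rows of the count matrices, so that 9 of 9 members were found, with UMIs in all 6 libraries. The libraries came from duodenal organoids of adult mice, 10 weeks old, collected at day 3 as live-sorted cells. Wild-type (WT) organoids were given the vehicle DMSO (-EIPA, 2 libraries) or (+EIPA, 2 libraries) 5 µM 5-(N-Ethyl-N-isopropyl)-amiloride, a small-molecule inhibitor derived from amiloride. Organoids of an inducible CRISPR-Cas9 line, made by lentiviral delivery, puromycin selection and growth from single clones, were kept without any such agent (-Dox, 1 library) or with 2 µg/mL doxycycline (+Dox, 1 library), which turns on Cas9, and the +Dox cells were also sorted for GFP. The medium of every group held 1 mM N-acetylcysteine, itself an antioxidant and a source of cysteine, so all levels below were measured in its presence.

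NRF2, encoded by Nfe2l2, is held at a low level in unstressed cells by KEAP1, which hands it over for degradation. Oxidants and electrophiles modify KEAP1, NRF2 then accumulates, pairs with a small MAF protein and binds the antioxidant response element, a short DNA motif near its target genes. In the intestine the pathway is known for handling reactive compounds from food and bile, and its targets fall into the glutathione system (Slc7a11, Gclc, Gclm), the thioredoxin system (Txnrd1, Srxn1), heme breakdown (Hmox1) and the reduction of quinones, carbonyls and aldehydes (Nqo1, Cbr3, Akr1b8).

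In GRCm38, the build of the files, Slc7a11 lies at chr3:49892526-50443614 (minus strand), Gclc at chr9:77754535-77794485 (plus), Gclm at chr3:122245557-122270732 (plus), Txnrd1 at chr10:82833951-82897712 (plus) and Srxn1 at chr2:152105516-152111376 (plus). Hmox1 lies at chr8:75093621-75100589 (plus), Nqo1 at chr8:107388225-107403206 (minus), Cbr3 at chr16:93683215-93690990 (plus) and Akr1b8 at chr6:34354119-34368463 (plus), all from GENCODE vM21. RefSeq start-site windows, from 250 bases before to 50 bases after the start on GRCm38.p6, were at hand for 7 of the 9 genes (9 start sites, 3 of them of Txnrd1), not for Gclc and Hmox1. They were searched on both strands for 2 spellings of the core of the antioxidant response element, TGACNNNGC and TGAGNNNGC, of which at least 1 occurred in 4 of the 9 windows, each of another gene, and in 27.8% of all 32851 windows. Srxn1 held 3 matches, and 4.68% of all windows held 2 or more. Nqo1, Cbr3 and Akr1b8 held none, which says only that these letters are not in their windows. The 250 bases before the start are shown for Srxn1, Slc7a11 and Gclm, which have a single start site in the table and a match before it (Txnrd1 holds 1 match, before 1 of its 3 start sites), with the matches in capitals (a match on the opposite strand is printed as it reads on the gene's own strand). The Srxn1 window is chr2:152105274-152105523 on the plus strand, that of Slc7a11 chr3:50443614-50443863 on the minus strand and that of Gclm chr3:122245307-122245556 on the plus strand.
Srxn1: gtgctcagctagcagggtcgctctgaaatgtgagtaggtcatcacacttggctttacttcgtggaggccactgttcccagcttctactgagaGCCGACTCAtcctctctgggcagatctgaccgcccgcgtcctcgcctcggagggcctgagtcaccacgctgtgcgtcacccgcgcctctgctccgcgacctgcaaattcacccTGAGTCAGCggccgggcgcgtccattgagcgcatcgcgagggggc
Slc7a11: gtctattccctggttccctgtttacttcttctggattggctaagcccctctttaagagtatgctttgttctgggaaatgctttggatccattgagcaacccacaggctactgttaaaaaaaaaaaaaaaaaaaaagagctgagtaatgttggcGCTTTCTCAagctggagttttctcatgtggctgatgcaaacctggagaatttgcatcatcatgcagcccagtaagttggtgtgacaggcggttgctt
Gclm: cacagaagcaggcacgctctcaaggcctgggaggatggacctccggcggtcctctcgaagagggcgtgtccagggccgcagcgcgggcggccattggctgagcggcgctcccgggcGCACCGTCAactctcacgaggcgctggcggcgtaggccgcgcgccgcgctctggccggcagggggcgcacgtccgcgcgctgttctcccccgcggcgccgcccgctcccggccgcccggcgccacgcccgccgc
In Srxn1, the match that starts 45 bases before the start site, TGAGTCAGC, holds the letters TGAGTCA. These are the opposite strand of the AP-1 motif TGACTCA, so both motifs overlap there. A second TGACTCA match in Srxn1 starts 102 bases before the start site, outside any core match and in lower case above, and 5.20% of all windows held TGACTCA on either strand. The third Srxn1 match begins 28 bases after the start and is not printed. A match is a description of letters and was not tested as a binding site.

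The 6 libraries held 14319 to 25481 barcodes and 176388405 to 249350351 UMIs. A cell was used when 1000 genes or more were detected in it and mitochondrial UMIs stayed under 20%, which left 12083 to 18211 cells per library at a median of 11478 to 17020 UMIs, with +Dox and the second +EIPA library the deepest per cell. Any pair of libraries shared 33 to 78 of the kept barcodes. Cells fell into 22 clusters, of which 18 were given a class by marker genes: ISC-like (intestinal stem cell), Proliferating-like, Enterocyte-like, Revival-like, Goblet-like, Paneth-like, EEC-like (enteroendocrine) and Tuft-like, and 4 clusters stayed unnamed. The Revival-like cluster was led by Tm4sf4, Sprr1a and Lgals3, and was named for the markers Clu, Anxa1 and Ly6a among its top genes. Summed markers of fibroblasts, immune and endothelial cells were at most 0.460 CPM (UMIs of a gene per 1000000 UMIs of the cells summed) in any library, summed over all cells. Within classes, 1 of the 3 immune markers gave 6.72 to 37.8 CPM in Tuft-like cells, the other 2 being at 0 in all libraries, and endothelial markers gave 1.17 to 6.95 CPM in EEC-like cells. Most Goblet-like cells (3869) were of a cluster led by Fcgbp and Agr2, with the secretory progenitor markers Dll1, Creb3l1 and Spdef among its top genes. A cluster led by Zg16 and Clca1 held 421. Summed goblet markers gave 22482 to 47328 CPM in Goblet-like and 37196 to 52759 CPM in Paneth-like cells, so the Goblet-like name is loose. The Revival-like name is loose as well. Summed enterocyte markers gave 6426 to 37944 CPM in Revival-like cells, against 31942 to 67261 CPM in Enterocyte-like cells. Summed revival markers gave 152 to 2655 CPM in Revival-like cells.

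To see where the antioxidant genes are used in the organoid, their summed counts were compared between cell classes within each library. Most of the 9 genes were highest in Enterocyte-like or Revival-like cells, and Gclc was highest in Tuft-like cells. Txnrd1 and Slc7a11 differed little between Enterocyte-like and ISC-like cells. The clusters were built on the same cells, so these levels are a description with no test.

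Among the reductases, Cbr3, a carbonyl reductase, was at 13.5 and 28.7 CPM in the ISC-like cells of the -EIPA libraries and at 204 and 264 CPM in their Enterocyte-like cells. The Enterocyte-like level was 5.24 to 15.1 times the ISC-like level across the 6 libraries, and Enterocyte-like cells ranked highest in 5 of them. Nqo1, which reduces quinones by 2 electrons, ranked highest in Enterocyte-like cells in 6 of 6 libraries, at 3.58 to 5.82 times the ISC-like level. Akr1b8, an aldo-keto reductase, ranked highest in Revival-like cells in 6 of 6 libraries, at 64.8 and 93.8 CPM in the -EIPA libraries against 35.5 and 53.2 CPM in Enterocyte-like cells.

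Hmox1, heme oxygenase 1, was highest in Revival-like cells in 6 of 6 libraries. It was at 19.0 and 13.0 CPM there in -EIPA, at 30.2 and 25.8 CPM in +EIPA, and at 18.5 and 15.2 CPM in -Dox and +Dox. In ISC-like cells it lay between 0.582 and 1.11 CPM in all 6 libraries, which rests on 14 to 22 UMIs per library. The Revival-like level was thus 17.2 to 31.8 times the ISC-like level, with no overlap between the classes.

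In the thioredoxin system, Srxn1, which repairs overoxidized peroxiredoxins, was at 4.85 to 11.3 times the ISC-like level in Enterocyte-like cells and at 4.49 to 11.2 times in Revival-like cells, and these were the highest 2 classes in every library. Txnrd1, the cytosolic thioredoxin reductase, varied far less between classes. Its Enterocyte-like level was 1.05 to 1.63 times its ISC-like level, and it was lowest in Paneth-like cells in 6 of 6 libraries.

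In the glutathione system, Gclc, the catalytic subunit of the enzyme that makes the glutathione precursor, was highest in Tuft-like cells in 5 of 6 libraries. It was at 128 and 106 CPM in the Tuft-like cells of -EIPA, 109 and 109 CPM in +EIPA, 185 CPM in -Dox and 76.0 CPM in +Dox, which is 2.53 to 4.62 times the ISC-like level. Its partner Gclm, the modifier subunit of the same enzyme, did not share this peak. Gclm was highest in Enterocyte-like cells and lowest in Paneth-like cells in 6 of 6 libraries, and its Tuft-like level was 0.919 to 1.25 times its ISC-like level. Slc7a11, the cystine importer that feeds the pathway, had an Enterocyte-like level of 0.550 to 1.15 times the ISC-like level. Its Revival-like level was 1.09 to 3.00 times the ISC-like level and the highest of all classes in 4 of 6 libraries. In the 3 libraries without EIPA or Dox it was at 9.48 to 34.5 CPM in Revival-like cells, the highest class on average, and at 6.30 to 7.59 CPM in EEC-like cells, the lowest, and neighbouring classes in the order of levels overlapped at every step.

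**Figure D1:**
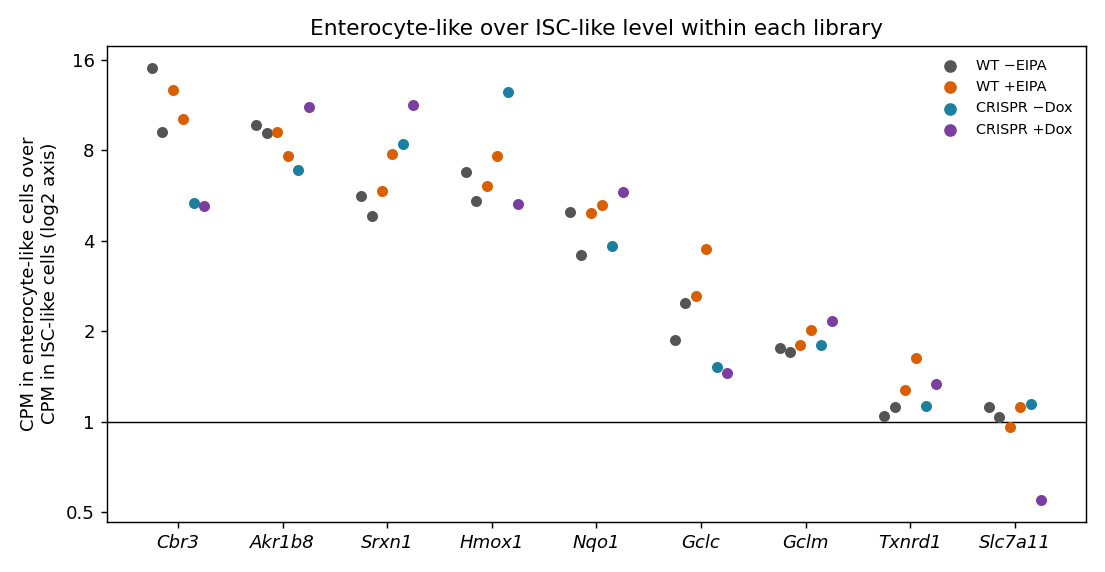
Level in Enterocyte-like cells divided by the level in ISC-like cells (y axis, log2 scale, ratio of CPM) for each gene (x axis, ordered by median), with 1 point per library coloured by group. Cbr3, Akr1b8, Srxn1, Hmox1 and Nqo1 lie above 3.5 in all 6 libraries, while Txnrd1 and Slc7a11 lie between 0.550 and 1.63.

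Over the 48 combinations of 8 classes and 6 libraries, each gene's log level was correlated with the mean of the other 8 as a description of likeness. The points share libraries and depth. Pearson's r was 0.801 for Nqo1, 0.791 for Akr1b8, 0.770 for Cbr3, 0.767 for Srxn1, 0.761 for Gclm and 0.729 for Hmox1. It was 0.553 for Txnrd1, 0.466 for Gclc and 0.256 for Slc7a11, the least like the rest. Among pairs, Nqo1 and Cbr3 were the most alike (r = 0.910) and Gclc and Slc7a11 the least (r = -0.0296). Of 7730 genes outside the members and the gene lists followed below, the 5 whose pattern was most like the mean of the members were Esd (r = 0.914), Ankrd9 (0.904), Pnp2 (0.885), Cdc42ep2 (0.884) and Frmd8 (0.881). Genes of those lists were left out of this ranking, so their likeness is not given.

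The main comparison asked whether EIPA moves the antioxidant genes. Summed over all kept cells, 8 of the 9 genes were higher in both +EIPA libraries than in both -EIPA libraries, led by Slc7a11, Hmox1, Akr1b8 and Srxn1. Of all 15890 genes tested, 13.5% were apart in that direction. The members were chosen with earlier results of these data known, so their counts beside such shares are a description. None of the 9 passed the edgeR quasi-likelihood test over all genes without pairing (0 of 9, and 0% of all genes), in which 7 of 9 had an unadjusted p under 0.05 with a higher level, compared with 7.38% of all genes. With the preparation as a block, 6 of 9 passed and rose, namely Slc7a11, Akr1b8, Cbr3, Srxn1, Hmox1 and Gclc, against 4.47% of all genes that rose in the same fit, which leaves 1 residual degree of freedom. On simulated data for all cells, edgeR with and without the block and DESeq2 all made more false calls than their 5% threshold allows, so their calls are weaker evidence than their adjusted p says. Both edgeR fits also missed most changes of 1.5-fold there, so 0 of 9 without the block does not show that the genes stayed the same. DESeq2 without the block also called 6 of 9, the same genes, where 3.49% of all genes rose. Without the filter on low counts 3 of 9 passed in edgeR (Hmox1, Srxn1 and Slc7a11), against 0.801% of all genes that rose.

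In the glutathione system, Slc7a11 was at 10.4 and 11.0 CPM in -EIPA and at 18.4 and 18.7 CPM in +EIPA. The groups lay far apart relative to the spread within each. The log2 fold change was 0.88 ± 0.08 (SE, n = 2 per group; edgeR adjusted p = 0.239 without the block and 0.0110 with it). Gclc was at 46.0 and 45.6 CPM in -EIPA and at 53.9 and 57.9 CPM in +EIPA, a log2 fold change of 0.37 ± 0.09 (edgeR adjusted p = 0.306, and 0.0397 with the block). Gclm was at 154 and 167 CPM and at 170 and 190 CPM, so that the groups were apart by less than the spread within them (log2 fold change 0.25 ± 0.11, edgeR adjusted p = 0.562, and 0.0643 with the block).

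In the thioredoxin system, Srxn1 and Txnrd1 parted. Srxn1 was at 22.8 and 17.9 CPM in -EIPA and at 33.4 and 30.9 CPM in +EIPA. Its log2 fold change was 0.74 ± 0.12 (edgeR adjusted p = 0.245, and 0.0223 with the block). Txnrd1 was at 193 and 189 CPM in -EIPA and at 198 and 187 CPM in +EIPA, the only member whose groups overlapped, with a log2 fold change of 0.09 ± 0.07 (edgeR adjusted p = 0.755, and 0.308 with the block).

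Hmox1 was at 2.59 and 1.89 CPM in -EIPA and at 4.50 and 4.85 CPM in +EIPA. Its log2 fold change of 1.15 ± 0.19 was the largest among the members (edgeR adjusted p = 0.248, and 0.0362 with the block). It rests on 419 and 453 UMIs against 744 and 1127 UMIs.

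Among the reductases, Akr1b8 was at 17.6 and 22.5 CPM in -EIPA and at 28.6 and 43.9 CPM in +EIPA, a log2 fold change of 0.94 ± 0.26 (edgeR adjusted p = 0.361, and 0.0206 with the block). Cbr3 was at 63.7 and 75.2 CPM and at 86.4 and 109 CPM, a log2 fold change of 0.58 ± 0.17 (edgeR adjusted p = 0.389, and 0.0210 with the block). For both genes the second preparation was higher than the first with and without EIPA, and the log2 ratio of CPM within each preparation was 0.70 and 0.97 for Akr1b8 and 0.44 and 0.54 for Cbr3. Nqo1 was at 33.5 and 33.2 CPM and at 37.4 and 35.5 CPM, a log2 fold change of 0.21 ± 0.06 (edgeR adjusted p = 0.389, and 0.0744 with the block).

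**Figure D2:**
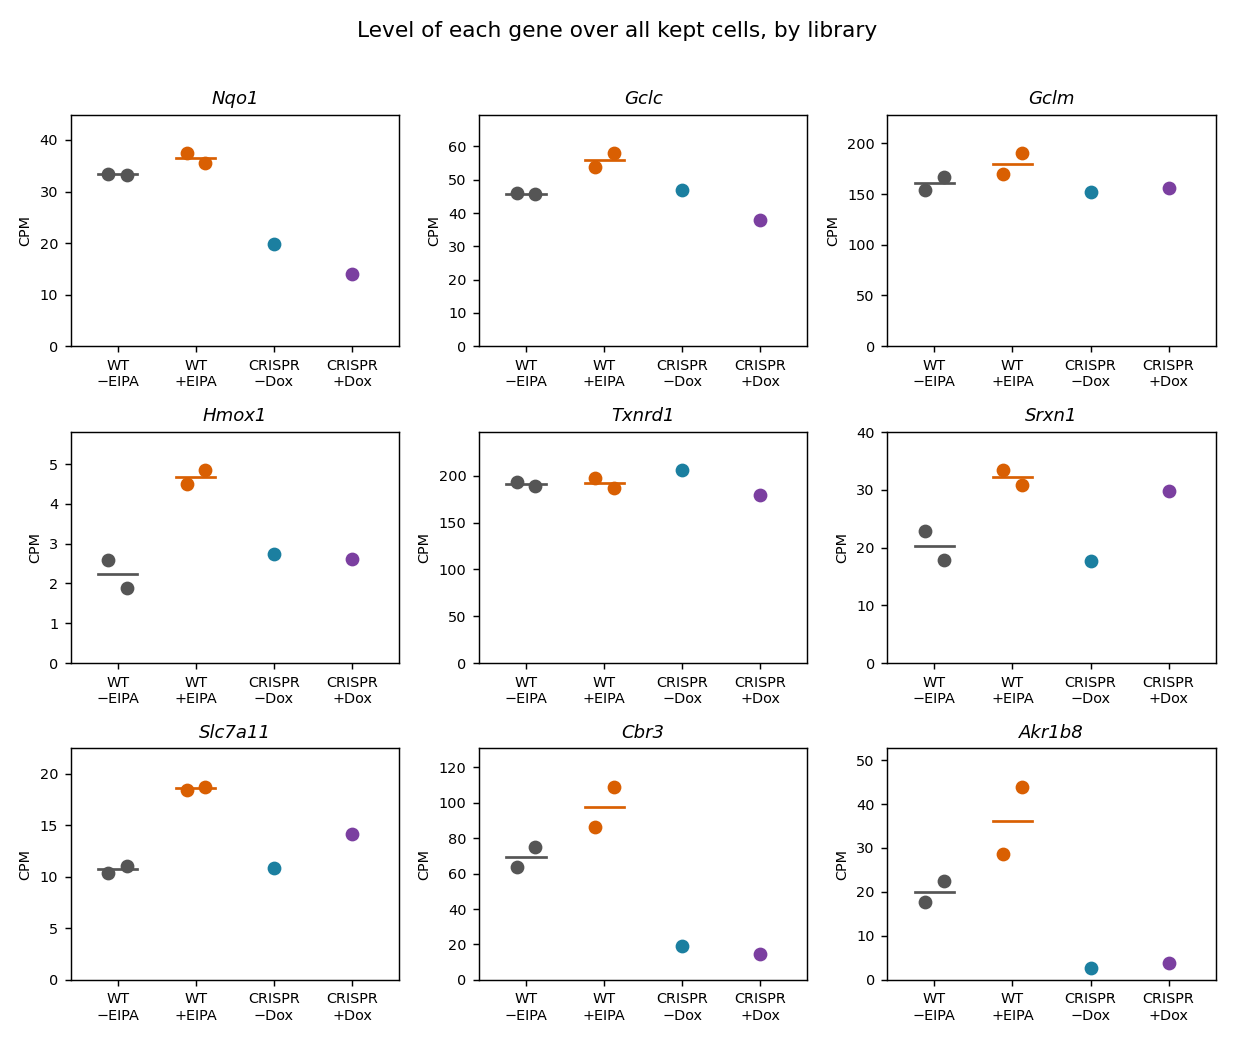
Level of each gene (y axis, CPM, starting at 0) over all kept cells in each library, with 1 point per library and a bar at the mean of groups with 2 libraries (n = 2 for -EIPA and +EIPA, n = 1 for -Dox and +Dox). The +EIPA points lie above the -EIPA points for every gene but Txnrd1, and Cbr3 and Akr1b8 are far lower in both CRISPR libraries.

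The share of cells in the classes where these genes are high also differed. Revival-like cells were 0.762% and 1.31% of kept cells in -EIPA and 2.77% and 4.46% in +EIPA, and Enterocyte-like cells were 16.1% and 11.4% against 19.5% and 17.0%. Each +EIPA library was therefore weighted to the class make-up of the -EIPA library of its preparation. For Hmox1 the log2 ratios of the 2 preparations went from 0.80 and 1.36 to 0.47 and 0.93, for Srxn1 from 0.55 and 0.79 to 0.35 and 0.51, and for Akr1b8 from 0.70 and 0.97 to 0.55 and 0.70. For Cbr3 they went from 0.44 and 0.54 to 0.27 and 0.32, and for Gclc from 0.23 and 0.35 to 0.14 and 0.21. For Slc7a11 they went from 0.82 and 0.77 to 0.87 and 0.75. The differences of Hmox1, Srxn1, Akr1b8, Cbr3 and Gclc were thus smaller, and still above 0, at a fixed make-up, that of Slc7a11 was nearly the same, and those of Nqo1 became 0.08 and -0.01.

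Within the cell classes, the picture depended on the gene. None of the members passed the unblocked edgeR test in any class (0 of 9 in each of 8 classes, where 0% to 0.258% of all genes passed), and those of an unadjusted p under 0.05 with a higher level were 1 in ISC-like (1.61% of all genes), 2 in Proliferating-like (2.55%), 5 in Enterocyte-like (8.06%), 1 in Revival-like (0.666%), 4 in Goblet-like (4.80%), 3 in Paneth-like (3.11%), 4 in Tuft-like (2.42%) and 2 in EEC-like cells (2.11%). The unblocked test passed 0.0918% of all genes in Tuft-like and 0.0648% in EEC-like cells. DESeq2 called Slc7a11 in Proliferating-like cells (0.482% of all genes rose) and Srxn1 in Enterocyte-like cells (2.58%), and 0 members in ISC-like (0.0752%), Revival-like (0.0120%), Goblet-like (0.437%), Paneth-like (0.416%), Tuft-like (0.146%) and EEC-like cells (0.175%). Outside Revival-like cells, Slc7a11 was higher in both +EIPA libraries than in both -EIPA libraries in each class. Some members went the opposite way, with both +EIPA libraries under both -EIPA libraries. Nqo1 did so in Proliferating-like cells (30.1 and 31.7 CPM in -EIPA, 27.7 and 28.1 CPM in +EIPA). So did Txnrd1 in Tuft-like cells (213 and 224 CPM against 188 and 200 CPM). Among EEC-like cells it held for Txnrd1 (182 and 190 against 175 and 176 CPM) and, by a narrow gap, for the CPM of Gclc (60.9 and 57.8 against 57.5 and 57.2 CPM). The edgeR fold change of Gclc there was above 0 and its sign changed with the settings, so no fall of Gclc is shown. The classes come from the same libraries and are not independent repeats. Shares of all genes apart upward are given here only for all cells and for Enterocyte-like cells, and shares apart downward are not given. The separations in the other classes are thus values without a background share, and not a result about the members. In Proliferating-like cells Slc7a11 was at 11.4 and 11.0 CPM in -EIPA and at 22.5 and 21.1 CPM in +EIPA, a log2 fold change of 1.02 ± 0.07 (edgeR adjusted p = 0.148, and 4.41e-09 with the block). In Goblet-like cells it was at 7.56 and 10.7 CPM and at 18.3 and 18.7 CPM (log2 fold change 1.03 ± 0.18, edgeR adjusted p = 0.116, and 3.25e-09 with the block). Pooled over libraries, the small Goblet-like cluster led by Zg16 and Clca1 ranked 1 of the 22 clusters for Slc7a11. The large one led by Fcgbp and Agr2 ranked 10. The part of these clusters in the class value was not tested. On simulated data, 11.4% (Tuft-like) to 30.0% (Revival-like) of the blocked calls in a class were false. The share was 29.0% in Proliferating-like and 19.0% in Goblet-like cells, so the blocked values of the classes are weaker evidence than they read.

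In Enterocyte-like cells all 9 genes had a fold change above 0, as did 44.7% of all genes, with a median of 0.55 on the log2 scale against -0.04 over all 12409 genes tested, and 7 of 9 had groups that did not overlap, compared with 13.9% of all genes in that direction. With the block 5 of 9 passed and rose there, against 6.83% of all genes: Gclc, Hmox1, Srxn1, Slc7a11 and Akr1b8. Srxn1 was at 56.1 and 44.2 CPM in -EIPA and at 75.8 and 78.5 CPM in +EIPA (log2 fold change 0.75 ± 0.17, edgeR adjusted p = 0.172, and 1.91e-04 with the block). Gclc was at 68.8 and 83.7 CPM and at 91.1 and 121 CPM (log2 fold change 0.61 ± 0.19, edgeR adjusted p = 0.263, and 0.00372 with the block). Txnrd1 was at 191 and 188 CPM in -EIPA and at 222 and 240 CPM in +EIPA there (log2 fold change 0.41 ± 0.14, edgeR adjusted p = 0.296, and 0.0837 with the block). In Paneth-like cells too all 9 fold changes were above 0, as were 50.4% of all genes, with a median of 0.54 against 0.0017 over all genes. Txnrd1, at 125 and 129 CPM against 129 and 120 CPM there, was among them, and its sign turned with library size in place of TMM (-0.03).

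The clusters within the Enterocyte-like class were not in the same proportions. The cluster led by Reg3a and Apoc3 held 27.6% and 22.7% of the class in -EIPA and 33.1% and 35.1% in +EIPA. Pooled over libraries, this cluster was the highest for Gclm and Srxn1, but close to the next one (297 against 292 CPM and 80.7 against 80.4 CPM). The cluster next for Srxn1, led by Apoa4 and Apob, held 20.2% and 26.7% in -EIPA and 20.6% and 20.8% in +EIPA. The part of these shares in the class values was not tested.

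In ISC-like cells Gclc was at 36.8 and 33.7 CPM in -EIPA and at 34.7 and 32.2 CPM in +EIPA, and Txnrd1 at 182 and 168 CPM against 173 and 147 CPM. Neither direction held: with clusters made without the library correction the log2 fold changes were 0.10 and 0.18 in place of -0.0039 and -0.06, and leaving out 1 library at a time they ran from -0.06 to 0.05 for Gclc and from -0.17 to 0.03 for Txnrd1. With the block 4 of 9 passed and rose in ISC-like cells, Gclm, Slc7a11, Cbr3 and Akr1b8, against 3.72% of all genes. Of these, Cbr3 turned sign in the unblocked test without the first -EIPA library (-0.07) and without the second +EIPA library (-0.10). In the same fit 3 passed and rose in Proliferating-like cells (Hmox1, Slc7a11 and Akr1b8, 4.75% of all genes), 4 in Goblet-like cells (Hmox1, Srxn1, Slc7a11 and Akr1b8, 4.17%), 4 in Paneth-like cells (Srxn1, Slc7a11, Cbr3 and Akr1b8, 2.51%), 2 in EEC-like cells (Slc7a11 and Akr1b8, 1.52%) and 0 in Revival-like and Tuft-like cells (0.0286% and 0.326%).

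The difference of the EIPA effect between each class and ISC-like cells was tested directly by edgeR as the class-by-EIPA term, in a model with library as the block and class. No member passed in any of the 7 class comparisons (DESeq2 was not run on this model). Of all genes 0.0148% passed in Proliferating-like, 0% in Revival-like, 0.794% in Goblet-like, 0.206% in Paneth-like, 0.0738% in Tuft-like and 0.375% in EEC-like cells. The smallest adjusted p values were those of Txnrd1 and Gclc in Enterocyte-like cells, whose log2 differences from ISC-like cells were 0.51 ± 0.14 (SE, edgeR adjusted p = 0.124, 0.583% of all genes passed) and 0.63 ± 0.18 (edgeR adjusted p = 0.132). Without the first -EIPA library 6 of 9 members passed in Enterocyte-like cells, where 25.4% of all genes passed, and 1 in Proliferating-like cells (0.899%). Without the second -EIPA library 2 passed in Enterocyte-like cells (4.28% of all genes), 1 in Proliferating-like cells (0.166%) and 1 in Paneth-like cells (1.16%). With clusters made without the library correction 5 of 9 passed in Proliferating-like cells (15.8% of all genes), 3 in Goblet-like cells (7.11%), 1 in EEC-like cells (1.91%) and 1 in Enterocyte-like cells (0.681%). These differences thus depend on either -EIPA library and on the clustering.

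The other genes of the pathway were followed by the same counts over all kept cells. Of 20 glutathione enzymes and transporters, 17 had a fold change above 0 and the median was 0.39, against 49.3% of all genes above 0 and a median of -0.0032; the members' median was 0.58. None passed without the block, and with it 11 of 20 rose and 0 fell, where 4.47% of all genes rose and 0.812% fell. They included the glutathione S-transferases Gstm1 (log2 fold change 1.15 ± 0.10, edgeR adjusted p = 0.239, and 0.0110 with the block), Gsta2 (1.88 ± 0.26, 0.239 and 0.0282) and Gstm3 (1.08 ± 0.14, 0.239 and 0.0176). Gpx4, which reduces lipid peroxides, had a log2 fold change of 0.59 ± 0.09 (edgeR adjusted p = 0.244, and 0.0250 with the block). The larger share of Enterocyte-like cells in +EIPA, given above, moves with these values, and the fold changes by class were as follows: Gpx4 was at 0.09 ± 0.08 in ISC-like and 0.05 ± 0.09 in Proliferating-like cells against 0.96 ± 0.18 in Enterocyte-like cells, and Gstm1 at 0.25 ± 0.15, 0.33 ± 0.08 and 1.15 ± 0.17. The median of the list was 0.16 in ISC-like, 0.16 in Proliferating-like and 0.37 in Enterocyte-like cells, and the part of the make-up in the list's values was not tested. Of 9 other phase 2 enzymes 4 rose with the block, Cbr1, Akr1b7, Aldh1a1 and Osgin1, as did 1 of 10 genes of the thioredoxin and peroxiredoxin system (Prdx5), 0 of 6 genes of NADPH supply and 0 of 4 further antioxidant genes (Sod1, Sod2, Cat and Sesn2). Of 6 heme and iron genes 1 rose (Ftl1) and 2 fell (Blvrb and Tfrc), and 0 of 3 tested targets of the aryl hydrocarbon receptor passed.

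Among the regulators, Nfe2l2 was at 207 and 158 CPM in -EIPA and at 198 and 175 CPM in +EIPA (log2 fold change 0.12 ± 0.14, edgeR adjusted p = 0.882, and 0.366 with the block), and Keap1 at 50.8 and 41.5 CPM against 44.7 and 38.0 CPM (log2 fold change -0.08 ± 0.12, edgeR adjusted p = 0.918, and 0.431 with the block). Their transcripts do not report the protein, at which NRF2 is controlled. Of the 10 regulators 1, Sqstm1, which binds KEAP1, rose with the block (log2 fold change 0.34 ± 0.08, edgeR adjusted p = 0.315, and 0.0403 with the block). Slc7a11 is also known as a target of ATF4, the transcription factor of the amino acid response. Of a list of ATF4 and 8 of its targets 0 of 9 passed without the block and 6 of 9 rose with it, where 4.47% of all genes rose, among them Chac1 (log2 fold change 1.28 ± 0.19, edgeR adjusted p = 0.239, and 0.0343 with the block) and Slc3a2, the partner chain of Slc7a11 (0.43 ± 0.07, 0.244 and 0.0229). In the classes where Slc7a11 rose with the block, the genes of this list that rose differed in number. They were 6 in ISC-like (1 fell), 6 in Proliferating-like, 5 in Goblet-like, 3 in EEC-like, 2 in Enterocyte-like and 1 in Paneth-like cells. The part of ATF4 in the level of Slc7a11 was not tested.

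In a list of dissociation and heat-shock genes, 5 immediate early genes went in the other direction. The summed level of the list was 1195 and 1435 CPM in -EIPA and 695 and 676 CPM in +EIPA, with Fosb (log2 fold change -2.20 ± 0.24, edgeR adjusted p = 0.239, and 0.00198 with the block), Atf3, Fos, Jun and Egr1 the 5 of 10 that fell with the block and 0 that rose. The heat-shock genes did not pass, with log2 fold changes of 0.63 for Hspa1a, 0.76 for Hspa1b and -0.09 for Dnajb1. It was 1365 CPM in -Dox and 740 CPM in +Dox. Its part in the levels of the antioxidant genes was not tested.

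The second comparison set +Dox against -Dox, that is, the line with Cas9 turned on against the same line without it. It has 1 library per group, so there is no test, and a ratio counts as past the fold when it is at least 1.5-fold with at least 20 UMIs in 1 of the libraries. Intervals are exact 95% binomial ones that cover counting error only. Over all kept cells 1 of 9 members was past the fold, Srxn1, at 17.7 CPM in -Dox and 29.8 CPM in +Dox (log2 ratio 0.75, interval 0.69 to 0.80), compared with 14.0% of all 14832 genes past the fold upward and 5.04% downward. At the class make-up of -Dox the log2 ratio of Srxn1 was 0.41, which is under the 1.5-fold limit. The median of the members was -0.07 against -0.03 over all genes.

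The other members went in different directions. Slc7a11 was at 10.8 CPM in -Dox and 14.1 CPM in +Dox (log2 ratio 0.38, interval 0.30 to 0.46), and Akr1b8 at 2.79 and 3.79 CPM (0.44, 0.29 to 0.59). Nqo1 was lower, at 19.8 and 14.1 CPM (log2 ratio -0.50, interval -0.56 to -0.43), as were Cbr3 at 19.0 and 14.6 CPM (-0.38, -0.45 to -0.32) and Gclc at 46.9 and 37.9 CPM (-0.31, -0.35 to -0.27). Hmox1, at 2.75 and 2.62 CPM, had an interval of its log2 ratio from -0.23 to 0.09. Gclm was at 152 and 156 CPM and Txnrd1 at 206 and 179 CPM. Of the 6 members that rose with EIPA under the block, 3 (Srxn1, Slc7a11 and Akr1b8) had a log2 Dox ratio above 0 and 3 (Gclc, Cbr3 and Hmox1) had one below 0. The interval of Hmox1 includes 0. The median over all genes was -0.03, so this split of signs is not a result about the members. The comparisons share no library.

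By class, Nqo1 was below 0 in each of the 7 classes with enough UMIs and past the fold downward in 5 of them, ISC-like (4.06% of all genes), Proliferating-like, Revival-like (21.0%), Paneth-like (3.80%) and EEC-like cells (3.38%), for example at 17.8 CPM in -Dox and 10.7 CPM in +Dox in Proliferating-like cells (log2 ratio -0.73, interval -0.85 to -0.61, 4.34% of all genes past the fold downward). Its sign in ISC-like cells turned with clusters made without the library correction (0.19), and in EEC-like cells when likely doublets were removed (0.38). In Proliferating-like cells Slc7a11 was at 9.99 and 19.9 CPM (log2 ratio 0.99, interval 0.88 to 1.11, 6% of all genes past the fold upward), close to its EIPA fold change of 1.02 in the same class. In Enterocyte-like cells, by contrast, Slc7a11 was at 11.5 and 7.09 CPM (log2 ratio -0.70, interval -0.89 to -0.51, 12.0% of all genes past the fold downward), where EIPA gave 0.57. Clusters of this class led by Reg3a and Apoc3, Fabp1 and Gstm3, and Apoa4 and Apob held 30.2%, 47.3% and 19.6% of it in -Dox. They held 46.0%, 36.2% and 14.5% in +Dox. Pooled over libraries, Slc7a11 was at 6.80, 12.7 and 22.1 CPM in these clusters, and Srxn1 at 80.7, 49.6 and 80.4 CPM. The part of this shift in the Dox ratios of the class was not tested. Srxn1 was past the fold in Enterocyte-like cells (47.8 and 72.5 CPM, log2 ratio 0.60, 8.83% of all genes past the fold upward) and in Revival-like cells (39.0 and 71.8 CPM, 0.88, 9.19%), whereas in ISC-like and Proliferating-like cells its ratios were 0.17 and -0.19. Gclc in Tuft-like cells was lower, at 185 and 76.0 CPM (log2 ratio -1.29, interval -1.76 to -0.83, 8.61% of all genes past the fold downward), and Cbr3 there was at 17.5 and 42.7 CPM on 13 and 32 UMIs (8.94% upward). Cbr3 was past the fold downward in Proliferating-like cells (11.3 and 6.95 CPM), Revival-like cells (18.5 and 7.12 CPM) and EEC-like cells (11.7 and 6.66 CPM). Hmox1 was past it downward in Enterocyte-like cells, at 7.28 and 4.08 CPM on 311 and 247 UMIs, and upward in Goblet-like cells on 12 and 33 UMIs (5.79% upward). Akr1b8 was past it upward in Revival-like cells, at 10.6 and 26.3 CPM on 27 and 203 UMIs, and downward in Paneth-like cells, at 1.66 and 1.03 CPM on 21 and 30 UMIs. For Akr1b8 in Paneth-like cells (-1.54 to 0.19) and Nqo1 in EEC-like cells (-1.33 to 0.09) the interval of the log2 ratio includes 0. Enterocyte-like cells made up 20.4% of the -Dox and 26.5% of the +Dox cells. Since the +Dox cells alone were sorted for GFP, a gate that can itself shift class shares, the sort and Dox cannot be told apart in these shares or in the ratios of the members. At the make-up of -Dox the log2 ratio over all cells was 0.41 in place of 0.75 for Srxn1, and -0.39 for Hmox1.

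**Figure D3:**
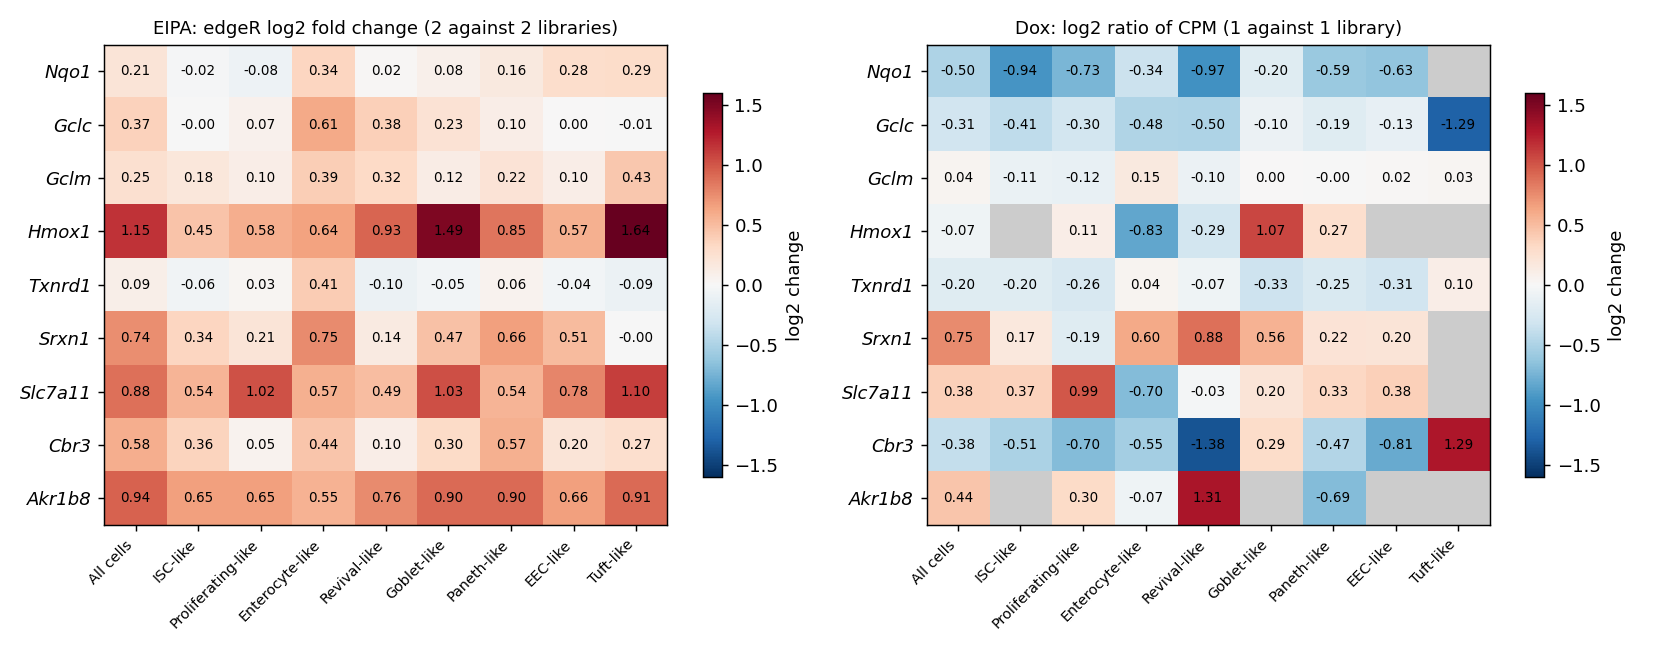
Log2 change of each gene (rows) over all kept cells and in each cell class (columns), with EIPA (left, edgeR log2 fold change, n = 2 libraries per group) and with Dox (right, log2 ratio of CPM, n = 1 library per group, no test). Red is higher and blue lower with the treatment, and grey marks genes under the minimum of 20 UMIs. Slc7a11, Hmox1 and Akr1b8 are red in every EIPA column, and Nqo1 is blue in every Dox column that has a value.

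The -Dox and -EIPA libraries are the controls of the 2 lines, the second with DMSO, and some members differed between them by more than either treatment moved them. This pattern was noticed in the values, rests on 1 CRISPR library against 2 WT libraries, and is given with no test. Clone, lentiviral selection, organoid stock, DMSO and library preparation cannot be told apart. Akr1b8 was at 17.6 and 22.5 CPM in -EIPA and at 2.79 CPM in -Dox, 7.19 times lower than the WT mean, and Cbr3 was at 63.7 and 75.2 CPM and at 19.0 CPM, 3.66 times lower. Nqo1 was at 33.5 and 33.2 CPM and at 19.8 CPM, 1.68 times lower. Thus 3 of 9 members were at least 1.5-fold lower and outside both WT libraries, compared with 4.75% of 10821 genes with at least 2 CPM, and 2 of 9 at least 3-fold lower, compared with 1.99%. The +Dox library shared the low levels, at 3.79 CPM for Akr1b8, 14.6 CPM for Cbr3 and 14.1 CPM for Nqo1.

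In every class the -Dox level of these 3 genes lay below both WT libraries. The WT mean was 4.03 (Paneth-like) to 8.84 (Goblet-like) times the CRISPR level for Akr1b8, 2.45 (ISC-like) to 5.07 (Enterocyte-like) times for Cbr3 and 1.73 (Proliferating-like) to 2.27 (EEC-like) times for Nqo1. Leaving out 1 WT library moved 3 of these ratios by over 1.5 times: without the second -EIPA library that of Cbr3 in ISC-like cells was 1.56 in place of 2.45, that of Nqo1 in Revival-like cells 1.39 in place of 2.12, and that of Akr1b8 in Tuft-like cells 3.52 in place of 6.79. The last rests on 1 UMI in -Dox (1.34 CPM, exact interval 0.0340 to 7.48 CPM), which covers the 4.72 CPM of the first -EIPA library. In Enterocyte-like cells Cbr3 was at 204 and 264 CPM in -EIPA and at 46.2 CPM in -Dox. For the other 6 members the WT mean was 0.815 (Hmox1) to 1.15 (Srxn1) times the CRISPR value over all cells, and 0.987 times for Slc7a11. In single classes some were further apart: Srxn1 was at 1.67 times in ISC-like and 1.63 times in Proliferating-like cells, and Slc7a11 at 0.639 times in Goblet-like cells. In Revival-like cells Srxn1 was at 104 and 40.9 CPM in WT against 39.0 CPM, a ratio of 1.86 that was 1.05 without the first -EIPA library. Slc7a11 there had a ratio of 1.36 that was 2.14 without the first and 0.587 without the second. In Tuft-like cells Gclc was at 0.629 times and Slc7a11, on 10 UMIs in -Dox, at 0.446 times. Srxn1 was at 1.99 times there on 6 UMIs in -Dox, and Hmox1, on 4 UMIs, had no stable ratio (0.245 and 0.879 against the 2 WT libraries).

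**Figure D4:**
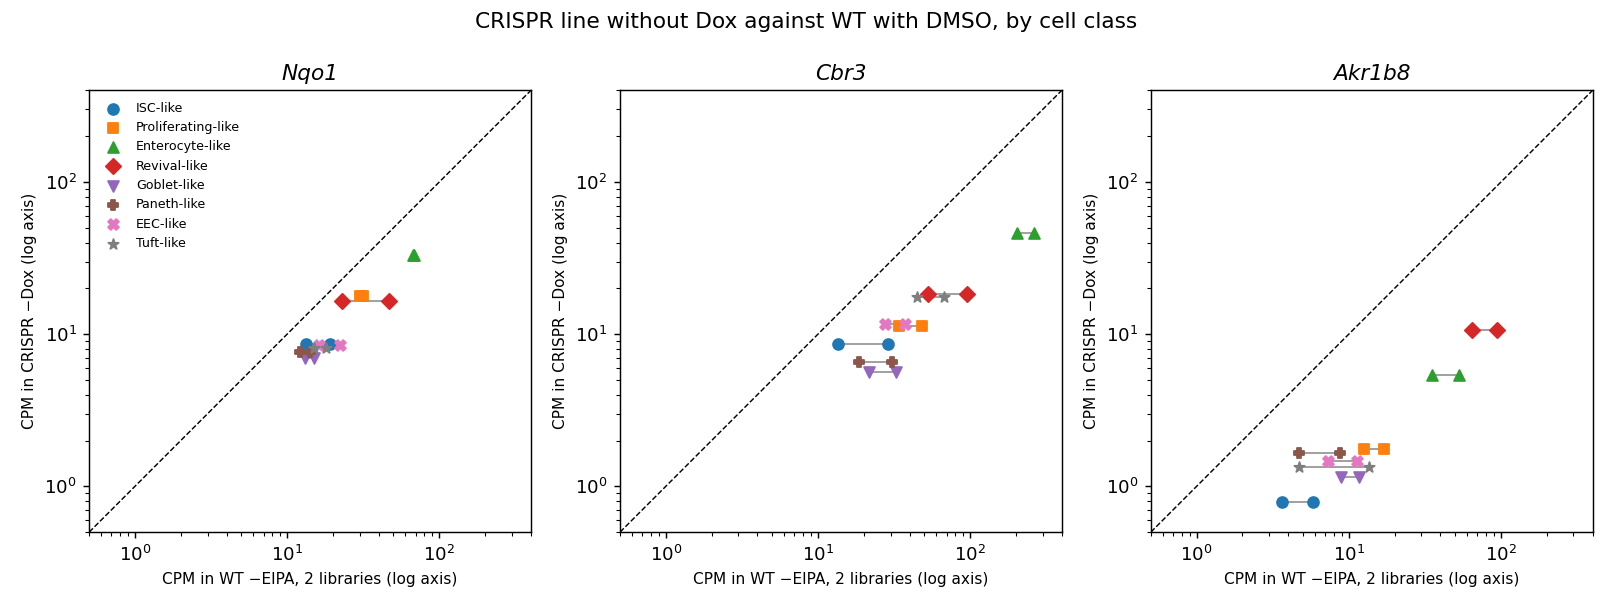
Level in the -Dox library (y axis, CPM, log scale) against the level in each -EIPA library (x axis, CPM, log scale) for Nqo1, Cbr3 and Akr1b8, with 1 symbol per cell class drawn at both WT libraries and joined by a line. The dashed line marks equal levels, and every point lies under it in all 8 classes.

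The genes beside the 3 low members were read for comparison, within 100000 bases of each. Akr1b8 sits in a row of aldo-keto reductase genes on chromosome 6. Its neighbour Akr1b3 (chr6:34302434-34317478) was at 40.4 and 41.1 CPM in -EIPA and at 8.21 CPM in -Dox, 4.96 times lower, Akr1b10 (chr6:34384218-34396950) was at 4.07 and 4.48 CPM and at 0.0989 CPM, 43.3 times lower, and Akr1b7 (chr6:34412334-34423142) was at 2.54 and 1.47 CPM and at 0.915 CPM, 2.19 times lower, although +Dox held 4.14 CPM of it. All 4 measured genes of the row were therefore lower in the -Dox library. Akr1b7, Akr1b8 and Akr1b10 are closely related copies, so their counts are uncertain among themselves. On chromosome 16, Cbr1 (chr16:93605853-93610505), the paralog 72710 bases from Cbr3, was at 303 and 273 CPM and at 185 CPM, 1.56 times lower, while Dop1b on the other side of Cbr3 was 1.06 times lower and Setd4 1.19 times. Around Nqo1 the neighbours Nfat5, Nob1 and Wwp2 had a WT mean of 0.900 to 1.02 times the CRISPR level.

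Of the glutathione enzymes, 18 of 20 were below the WT mean in the CRISPR line, 5 of 20 were at least 1.5-fold lower and outside both WT libraries (Gpx2, Gsta3, Gsta4, Gstm1 and Ggt1, against 4.75% of all genes) and 0 were higher, with a median log2 ratio of -0.36 against 0.08 over all genes. Of 9 other phase 2 enzymes 6 were below the WT mean, of which 3 were at least 1.5-fold lower and outside both WT libraries, Cbr1, Akr1b3 and Akr1b7. The regulators were not: Nfe2l2 was at 172 CPM and Keap1 at 53.4 CPM in -Dox, and 0 of 10 were at least 1.5-fold lower, with Mafk 1 of 10 higher (8.71% of all genes were at least 1.5-fold higher). By the same rule 0 of 10 genes of the thioredoxin and peroxiredoxin system were lower or higher. Of 6 genes of NADPH supply 0 were lower and 1 was higher, Me1 (22.0 and 19.8 CPM in -EIPA, 38.9 CPM in -Dox). Of 6 heme and iron genes 1 was lower (Blvrb) and 1 higher, Slc40a1 (1.63 and 1.27 CPM in -EIPA, 7.13 CPM in -Dox).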

How the data were processed

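Single-cell RNA-seq (10x Genomics 3' chemistry) was made from 6 organoid libraries. The authors aligned the reads and deposited filtered matrices of UMI counts per gene and cell barcode, made with Cell Ranger 6.1.2 on mm10/GRCm38 per the labels. From these counts, cells were filtered, described by Pearson residuals of 3000 variable genes, reduced to 45 principal components, corrected for library with a re-implementation of Harmony and clustered by Leiden at resolution 0.8. Clusters were named by markers. No doublets were removed in the main analysis, and doublet scores for the alternative came from Scrublet in scanpy 1.11.5. UMIs were summed per library and class and given as CPM, so the replicate is the library.

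EIPA was tested on the summed counts with edgeR 4.0.16 (quasi-likelihood, TMM, genes past its filter on low counts, Benjamini-Hochberg over all genes, threshold 0.05) in R 4.3.3, with DESeq2 1.42.0 as an alternative, both tested on simulated data first, where edgeR, its blocked fit and DESeq2 all made more false calls than the threshold allows in most classes and over all cells. The replicate numbers pair libraries: the study gives 2 separate preparations, and over all cells the first replicates of both groups deviated together from their group means (r = 0.736 across genes, 0.169 to 0.809 in the classes). The main fit has no block (2 residual degrees of freedom, against 1 with it), and the blocked value is printed beside it where it bears on a call. How many mice a preparation came from is not given in the sources used here, so p-values measure the spread between these libraries. Depth was 161670015 to 239368573 UMIs per library in kept cells, and intervals cover counting error only.

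The members and gene lists were chosen with earlier results of these data known. Genes named outside the members come from those lists, the 5 most alike genes, and the neighbours within 100000 bases, which were added after the values were seen. Alternatives were the block, DESeq2, library-size scaling, no low-count filter, stricter limits on cells, doublet removal, clusters without library correction and leaving out each library. Promoter windows are from RefSeq (GRCm38.p6). The gene targeted in the CRISPR-Cas9 line is not reported here.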

Additional observations from a re-analysis of the deposited data

How the results depend on the processing

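Every EIPA test across genes had 0 member calls in the main test, so the calls of the members depend on the fit; the 9 fold changes over all cells kept their direction under every alternative run. The cause of the differences was not tested. With the replicate block (preparation as the pairing) gene calls for EIPA were 839 in all cells, 804 in ISC-like, 1097 in Proliferating-like, 1181 in Enterocyte-like, 3 in Revival-like, 648 in Goblet-like, 372 in Paneth-like, 36 in Tuft-like and 238 in EEC-like, of the members these were 6 in all cells, 4 in ISC-like, 3 in Proliferating-like, 5 in Enterocyte-like, 4 in Goblet-like, 4 in Paneth-like and 2 in EEC-like. With DESeq2 gene calls for EIPA were 586 in all cells, 22 in ISC-like, 110 in Proliferating-like, 366 in Enterocyte-like, 6 in Revival-like, 59 in Goblet-like, 68 in Paneth-like and 31 in EEC-like, of the members these were 6 in all cells, 1 in Proliferating-like and 1 in Enterocyte-like. Without the filter on low counts gene calls for EIPA were 198 in all cells, 143 in ISC-like, 84 in Proliferating-like, 896 in Enterocyte-like, 87 in Revival-like, 310 in Goblet-like, 250 in Paneth-like, 71 in Tuft-like and 0 in EEC-like, of the members these were 3 in all cells, 1 in Proliferating-like, 5 in Enterocyte-like, 3 in Goblet-like and 3 in Paneth-like. With library size in place of TMM gene calls for EIPA were 20 in Goblet-like and 63 in Paneth-like, gene calls for the difference from ISC-like cells were 9 in Enterocyte-like and 74 in Paneth-like, the log2 value turned sign for Txnrd1 in Proliferating-like cells (EIPA, -0.04), Cbr3 in Proliferating-like cells (EIPA, -0.02), Nqo1 in Revival-like cells (EIPA, -0.09), Txnrd1 in Paneth-like cells (EIPA, -0.03) and Gclc in EEC-like cells (EIPA, -0.05). With stricter limits on cells gene calls for EIPA were 1 in Enterocyte-like, 7 in Goblet-like and 56 in Paneth-like, the log2 value turned sign for Nqo1 in Revival-like cells (EIPA, -0.02) and Srxn1 in Tuft-like cells (EIPA, 0.01). Without the 10% of cells with the highest doublet scores, chosen after seeing the data, gene calls for EIPA were 18 in Enterocyte-like, 3 in Goblet-like, 7 in Paneth-like, 0 in Tuft-like and 1 in EEC-like, the log2 value turned sign for Nqo1 in Revival-like cells (EIPA, -0.02), Cbr3 in Revival-like cells (EIPA, -0.02), Cbr3 in Goblet-like cells (EIPA, -0.13), Gclc in EEC-like cells (EIPA, -0.20), Cbr3 in EEC-like cells (EIPA, -0.20), Cbr3 in Tuft-like cells (EIPA, -0.25) and Nqo1 in EEC-like cells (Dox, 0.38). With clusters made without library correction gene calls for EIPA were 1 in ISC-like and 1 in Tuft-like, gene calls for the difference from ISC-like cells were 2139 in Proliferating-like, 872 in Goblet-like, 171 in Paneth-like, 15 in Tuft-like and 254 in EEC-like, of the members these differences were 5 in Proliferating-like, 1 in Enterocyte-like, 3 in Goblet-like and 1 in EEC-like, the log2 value turned sign for Nqo1 in ISC-like cells (EIPA, 0.68), Gclc in ISC-like cells (EIPA, 0.10), Txnrd1 in ISC-like cells (EIPA, 0.18), Nqo1 in Revival-like cells (EIPA, -0.01), Txnrd1 in Revival-like cells (EIPA, 0.01), Gclc in Tuft-like cells (EIPA, 0.04) and Nqo1 in ISC-like cells (Dox, 0.19). Leaving out 1 library at a time, with the lone library assumed to vary like the other group, gene calls for EIPA were 0 to 137 in all cells, 0 to 8 in ISC-like, 0 to 7 in Proliferating-like, 0 to 586 in Enterocyte-like, 0 to 23 in Revival-like, 0 to 177 in Goblet-like, 19 to 182 in Paneth-like, 36 to 118 in Tuft-like and 1 to 116 in EEC-like, of the members these were 0 to 1 in all cells, 0 to 1 in Enterocyte-like, 0 to 2 in Goblet-like, 0 to 2 in Paneth-like, 0 to 1 in Tuft-like and 0 to 1 in EEC-like, gene calls for the difference from ISC-like cells were 0 to 124 in Proliferating-like, 0 to 3413 in Enterocyte-like, 0 to 385 in Revival-like, 54 to 313 in Goblet-like, 41 to 447 in Paneth-like, 8 to 95 in Tuft-like and 23 to 83 in EEC-like, of the members these differences were 0 to 1 in Proliferating-like, 0 to 6 in Enterocyte-like and 0 to 1 in Paneth-like. The log2 fold change with EIPA turned sign in at least 1 of these for Gclc in ISC-like cells (-0.06 to 0.05), Cbr3 in ISC-like cells (-0.10 to 1.05), Nqo1 in ISC-like cells (-0.25 to 0.27), Txnrd1 in ISC-like cells (-0.17 to 0.03), Gclm in Proliferating-like cells (-0.01 to 0.23), Cbr3 in Proliferating-like cells (-0.20 to 0.34), Txnrd1 in Proliferating-like cells (-0.01 to 0.06), Nqo1 in Revival-like cells (-0.31 to 0.55), Txnrd1 in Revival-like cells (-0.35 to 0.21), Slc7a11 in Revival-like cells (-0.02 to 1.66), Cbr3 in Revival-like cells (-0.18 to 0.48), Srxn1 in Revival-like cells (-0.46 to 1.07), Nqo1 in Goblet-like cells (-0.01 to 0.17), Cbr3 in Goblet-like cells (-0.01 to 0.64), Gclm in EEC-like cells (-0.03 to 0.25), Gclc in EEC-like cells (-0.02 to 0.02), Txnrd1 in EEC-like cells (-0.08 to 0.01), Cbr3 in EEC-like cells (-0.21 to 0.52), Gclc in Tuft-like cells (-0.15 to 0.12), Srxn1 in Tuft-like cells (-0.31 to 0.21) and Cbr3 in Tuft-like cells (-0.34 to 0.66). Library size in place of TMM moved the median log2 fold change of all genes in Enterocyte-like cells from -0.04 to -0.17. Depth limits Hmox1 in ISC-like, Paneth-like, Goblet-like, Tuft-like and EEC-like cells (0 to 50 UMIs per library), Akr1b8 in the CRISPR libraries outside Proliferating-like, Enterocyte-like and the +Dox Revival-like cells, and the Revival-like class of the first -EIPA library.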
